A study of Mus musculus with 2 samples.

Results

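A set of 8 genes of the antimicrobial response of skin was described in single cells of healing mouse wounds, out of 27998 genes in the count tables: S100a8 and S100a9 (the subunits of calprotectin), S100a7a (a related S100 protein), Lcn2 (lipocalin 2), Slpi (secretory leukocyte peptidase inhibitor), the beta-defensins Defb6 and Defb14, and Camp (the cathelicidin precursor). These 8 genes were chosen by their symbols with their measured levels in these libraries already known, so every difference between libraries given for them is a description without a test. The wounds were circular, 1.8 cm across, on the dorsal skin of wild-type male C57BL/6J mice aged 6 to 8 weeks. By the study's text they received PBS (WT_LW) or 4 μg of ODN2395, a CpG oligodeoxynucleotide agonist of Toll-like receptor 9 (TLR9agonist_LW), on days 0, 3 and 6 after wounding. The wound centre was taken 2 days after the scab detached. A figure legend of the study instead gives a control oligodeoxynucleotide for WT_LW wounds, and the sample label WT_LW does not say which was used. Cells of several mice were pooled into 1 library per group, so differences between mice or preparations cannot be told apart from the treatment, and all intervals cover counting error only.

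Calprotectin is a dimer of S100A8 and S100A9 that withholds zinc and manganese from microbes and signals to inflammatory cells. Neutrophils hold it as their most abundant cytosolic protein, whereas keratinocytes make it mainly after injury or in inflamed epidermis. Lipocalin 2 binds bacterial siderophores and thereby iron, SLPI inhibits neutrophil serine proteases, beta-defensins and cathelicidin disrupt microbial membranes, and many of these genes respond to IL-17 and IL-1 in epithelium. Because the same genes are made by neutrophils and by keratinocytes, and because RNA from broken cells enters every droplet (free RNA), a level in all cells together does not tell which cells made the RNA.

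S100a8, S100a9 and S100a7a lie together in the S100 gene cluster of chromosome 3. In the RefSeq annotation of GRCm38.p6 the starts of S100a8 and S100a9 were 26.65 kb apart, and the start of S100a7a was 14.8 kb from that of S100a8. The 250 bases before the start of the calprotectin genes are shown because their transcripts followed each other across cells, with those of Slpi as a gene that neutrophils and keratinocytes also shared (S100a8 at chr3:90668821-90669070, plus strand, S100a9 at chr3:90695722-90695971, minus strand, Slpi at chr2:164356508-164356757, minus strand). Capitals mark matches on either strand to TATAAA, a core promoter element, or TTNCNNAA, a pattern that C/EBP factors can bind.
S100a8: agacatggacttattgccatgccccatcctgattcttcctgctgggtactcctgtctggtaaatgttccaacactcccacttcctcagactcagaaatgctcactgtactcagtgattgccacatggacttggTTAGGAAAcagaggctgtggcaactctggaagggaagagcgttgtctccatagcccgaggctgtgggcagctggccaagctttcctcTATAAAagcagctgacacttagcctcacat
S100a9: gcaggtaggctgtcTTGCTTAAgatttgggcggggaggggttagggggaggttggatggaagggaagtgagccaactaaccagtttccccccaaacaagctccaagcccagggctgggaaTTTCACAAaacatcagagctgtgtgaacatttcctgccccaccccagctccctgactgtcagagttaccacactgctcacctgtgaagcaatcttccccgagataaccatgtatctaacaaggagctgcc
Slpi: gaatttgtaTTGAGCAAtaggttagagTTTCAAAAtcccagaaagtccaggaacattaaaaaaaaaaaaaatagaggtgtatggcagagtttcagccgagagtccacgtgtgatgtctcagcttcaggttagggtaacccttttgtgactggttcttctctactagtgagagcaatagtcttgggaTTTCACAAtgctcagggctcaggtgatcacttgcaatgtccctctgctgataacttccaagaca
TATAAA occurred 30 bases before the start of S100a8, and in 12.97% of 27018 mouse windows of this length. TTNCNNAA occurred in 5 of the 7 member windows in the RefSeq table (S100a8, S100a9, Lcn2, Slpi and Defb6) and in 36.9% of all windows. S100a9 and Slpi held the same 8 bases, TTTCACAA, 130 and 64 bases before their starts. The NF-kB pattern and TTCNNNGAA (STAT) each occurred in the window of S100a7a alone, against 17.3% and 7.18% of all windows, and TGANTCA (AP-1) in none of the 7, against 6.87%. Defb14 had no entry.

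The deposited cells held 99374045 UMIs (unique molecular identifiers, each counting 1 captured RNA molecule) in WT_LW and 132339022 in TLR9agonist_LW, and 47 barcodes were the same in both. After filtering, 10588 and 12068 cells remained, with medians of 5190 and 5818 UMIs per cell. Each cell was put in a class by sets of marker genes that hold none of the 8 members, which placed 73.1% and 83.8% of cells. There were 514 and 1221 keratinocytes, with a median of 72.2% and 77.8% of the 18 keratinocyte markers above background, and 34 and 184 neutrophils, with 50% of the 12 neutrophil markers in each library. The ratio of the runner-up class to the own class lay near the cut for 89 and 148 of the keratinocytes and for 9 and 27 of the neutrophils. Keratinocytes were 4.85% of the cells of WT_LW (95% interval 4.45 to 5.28, exact Clopper-Pearson) and 10.1% of those of TLR9agonist_LW (9.59 to 10.7), and they held 9.48% and 24.1% of the UMIs. Neutrophils were 0.321% (0.222 to 0.448) and 1.52% (1.31 to 1.76). Keratinocytes of TLR9agonist_LW were also deeper, with a median of 21563 UMIs against 10172 (10171.5), while neutrophils had 2277 (2276.5) and 2352.

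Summed over all cells, S100a8 stood at 189 CPM (the gene's UMIs per 1000000 UMIs of the summed cells) in WT_LW and 2619 in TLR9agonist_LW, and S100a9 at 207 and 2808. Their log2 ratios, TLR9agonist_LW over WT_LW, were 3.79 (95% interval 3.77 to 3.81) and 3.76 (3.74 to 3.79). Lcn2 followed with 5.08 and 17.98 CPM, Slpi with 50.3 and 155, S100a7a with 0.944 and 1.90, and Defb6 with 77.9 and 116. Defb14 had 5 UMIs in WT_LW and 331 in TLR9agonist_LW, and Camp had 1 and 13. Of the 7 members with at least 50 UMIs, 6 were at least 2-fold higher in TLR9agonist_LW, where 4.16% of 15389 genes were so, and none was at least 2-fold lower, where 12% of genes were so. In such a sum, more cells of a type and more RNA per cell cannot be told apart, so the classes are described in turn.

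The genes' UMIs came from different classes. Keratinocytes held 59.3% of the S100a8 UMIs of WT_LW (95% interval 58.5 to 60.1) and 72.3% of those of TLR9agonist_LW, whereas neutrophils held 9.60% and 3.79%. With each cell given equal weight, the keratinocyte share in TLR9agonist_LW was 30.9%, and with a stricter gate 48.5%. For S100a9 the shares were 59.1% and 71.9% in keratinocytes, and 12.3% and 4.87% in neutrophils. Defb6 was held mostly by keratinocytes, with 83.1% and 84.2%, and so was Lcn2, with 67.4% and 63.0%. Slpi was divided differently, since macrophages and monocytes held 43.1% of its UMIs in WT_LW and 23.7% in TLR9agonist_LW, keratinocytes 8.81% and 29.6%, and neutrophils 13.2% and 18.7%. Cells in no class held 11.03% to 22.9% of the S100a8 UMIs and 17.6% to 28.7% of those of Slpi.

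**Figure D1:**
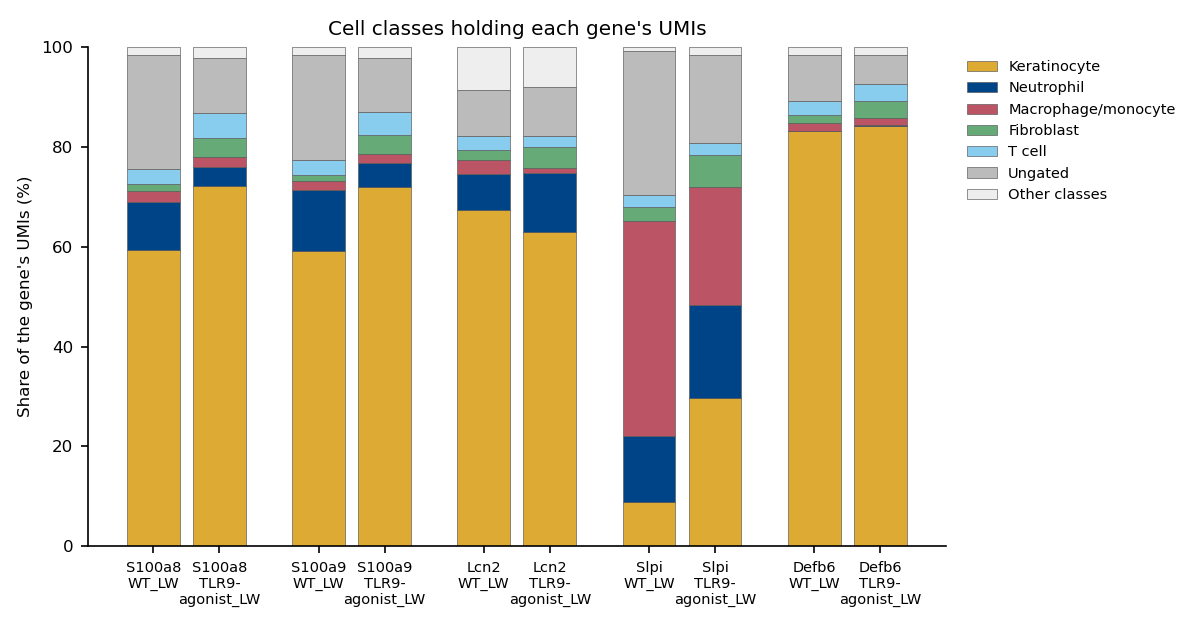
Share of each gene's UMIs (%, vertical axis) held by each cell class, 1 bar per gene and library, each bar adding to 100%. Keratinocytes held 59.3% and 72.3% of S100a8, but macrophages and monocytes held 43.1% of Slpi in WT_LW.

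By cell class, neutrophils had the highest level of calprotectin per UMI in both libraries. S100a8 stood at 17057 CPM in the neutrophils of WT_LW and 24371 in those of TLR9agonist_LW, and S100a9 at 23968 and 33598. The log2 ratios were 0.51 (95% interval 0.44 to 0.59) and 0.49 (0.42 to 0.55). Lcn2, a granule protein of neutrophils, had 346 and 516 CPM there with a log2 ratio of 0.58 (0.03 to 1.18), on 30 and 227 UMIs. Slpi had 6243 and 7137, with a log2 ratio of 0.19 (0.06 to 0.33). Its level in WT_LW rests largely on few cells, as the highest neutrophil held 173 of the 542 Slpi UMIs and the next 130. With a stricter gate the log2 ratio of Slpi was 1.88, and with classes from Leiden clusters that of Lcn2 was 1.03. With the classes as described, none of the 4 members counted was past 2-fold in neutrophils, where 12.2% of 1152 genes were at least 2-fold higher and 12.9% at least 2-fold lower. The ratios rest on the 34 neutrophils of WT_LW. Defb14 and Camp had no UMI in neutrophils, which allows up to 34.6 CPM in WT_LW and 6.82 in TLR9agonist_LW, and Defb6 had 0 and 19.

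In keratinocytes the 2 libraries lay much further apart. S100a8 stood at 1184 CPM for WT_LW against 7842 for TLR9agonist_LW, 6.62-fold higher (log2 ratio 2.73, 95% interval 2.70 to 2.76). S100a9 had 1287 and 8371 (log2 ratio 2.70, 2.67 to 2.73). Per UMI, keratinocytes of TLR9agonist_LW thus remained below the neutrophils of either library. Counted per cell this order did not hold in TLR9agonist_LW, where keratinocytes were much deeper. There 1221 keratinocytes held 204305 S100a8 UMIs and 184 neutrophils 10716, and the highest cells had 2017 and 325. In WT_LW, 514 keratinocytes held 9153 and 34 neutrophils 1481. Slpi had 46.7 and 191 CPM, a log2 ratio of 2.03 (1.88 to 2.19), and Defb14 had 0.647 and 10.1 on 5 and 264 UMIs, a log2 ratio of 3.97 (2.73 to 5.605). S100a7a had 0.776 and 2.30 on 6 and 60 UMIs, a log2 ratio of 1.57 (0.36 to 3.07). Lcn2 differed little, with 36.1 and 46.9 (log2 ratio 0.38, 0.19 to 0.57, and -0.03 with doublets kept), and Defb6 was lower in TLR9agonist_LW, with 683 and 404 (log2 ratio -0.76, -0.81 to -0.71). Camp had no UMI among the 7732682 and 26053645 UMIs of keratinocytes, which allows up to 0.388 and 0.115 CPM. Of the 7 members counted, 5 were at least 2-fold higher in TLR9agonist_LW, where 2.48% of 10849 genes were so, and none was at least 2-fold lower, where 21.2% of genes were so. The median log2 ratio over those genes was -0.53, so each ratio in keratinocytes is 0.53 larger when read against the median gene.

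**Figure D2:**
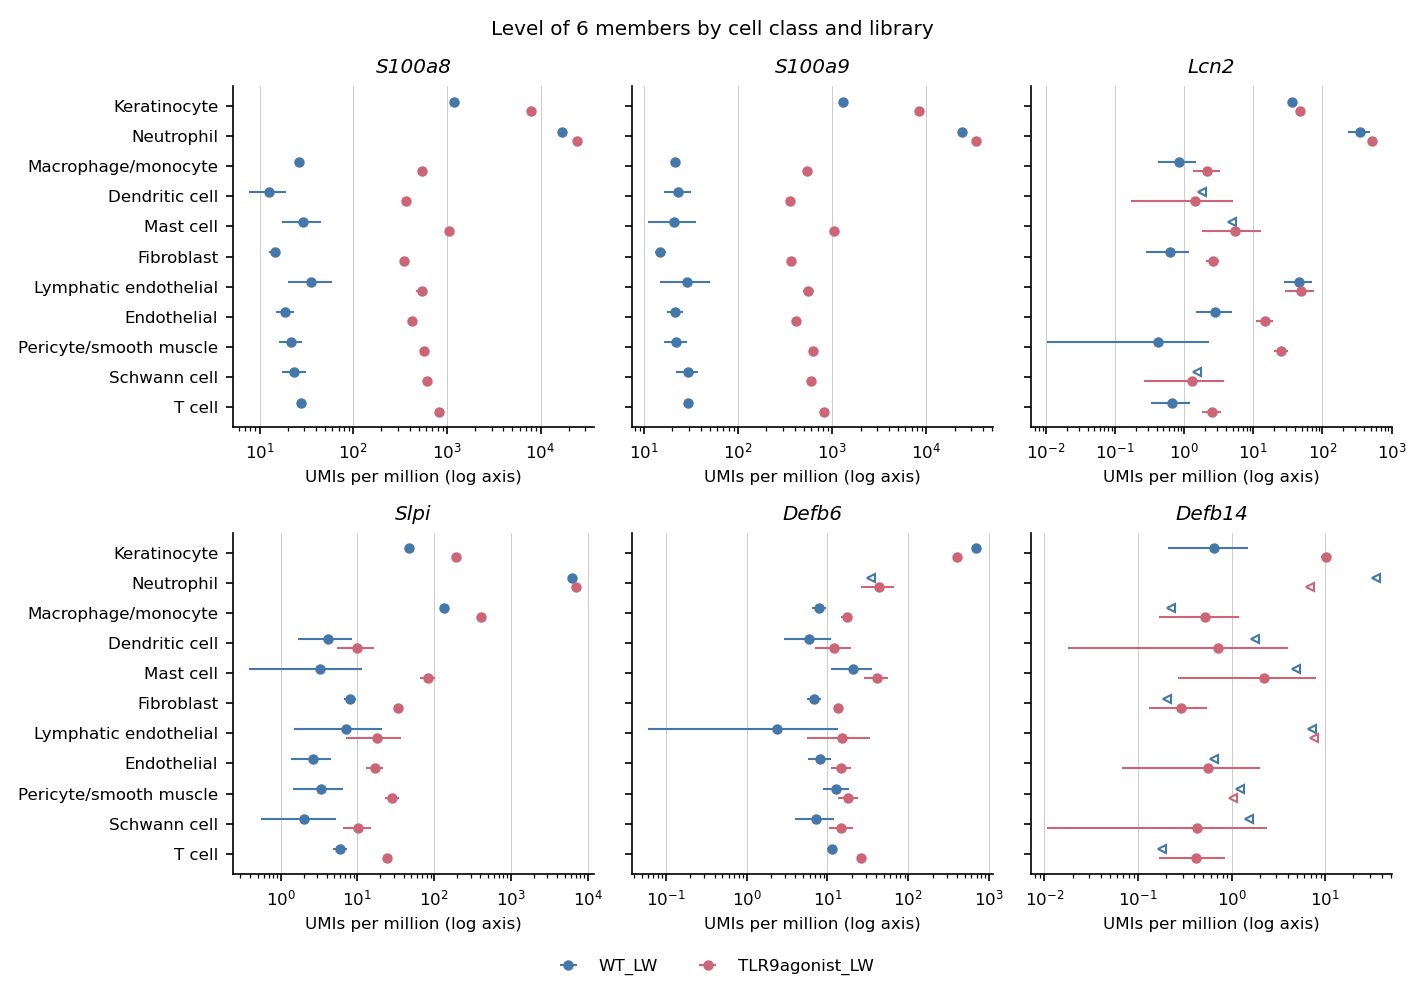
Level in CPM (horizontal log axis) of 6 genes in 11 cell classes, with 1 point per library and exact Poisson 95% intervals. Open triangles mark classes with no UMI, drawn at the level that 3 UMIs would give. S100a8 and S100a9 were highest in neutrophils and next in keratinocytes, and in TLR9agonist_LW they were higher in every class drawn.

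Within keratinocytes, the difference in calprotectin varied with the depth of the cell, in 3 ranges chosen after seeing the data. In the cells with 20000 or more UMIs, S100a8 had 1016 CPM in 173 cells of WT_LW and 8851 in 666 cells of TLR9agonist_LW (log2 ratio 3.12, 95% interval 3.08 to 3.16). Between 5000 and 20000 UMIs it had 815 in 143 cells and 3665 in 392 cells, a log2 ratio of 2.17 (2.09 to 2.25). Below 5000 UMIs, however, it had 5004 in 198 cells and 5188 in 163 cells, a log2 ratio of 0.05 (-0.04 to 0.14), and S100a9 had 5957 and 5392 (log2 ratio -0.14, -0.23 to -0.06). With free RNA included, the shallow keratinocytes of WT_LW held about as much calprotectin RNA per UMI as those of TLR9agonist_LW. In those cells the 12 neutrophil markers summed to 139 and 87.1 CPM. Free RNA, described below, was not subtracted within the ranges. The mix of layers, also described below, differed too. Suprabasal and granular cells were 57.1% and 67.5% of the shallowest range, 24.5% and 47.2% of the middle, and 37.6% and 59.8% of the deepest. The parts of free RNA, layer and depth in these ratios were not tested. When each keratinocyte counted equally, the log2 ratio of S100a8 was 1.44 in place of 2.73. Slpi did not show this pattern, with log2 ratios of 3.64, 4.04 and 1.56 from the shallowest to the deepest range.

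**Figure D3:**
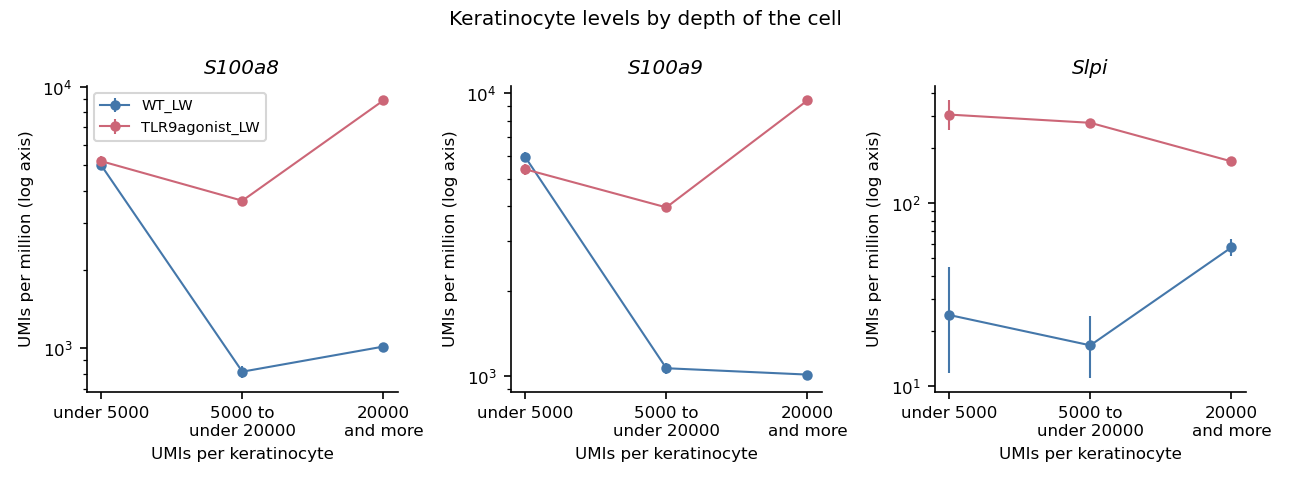
Level in keratinocytes (CPM, log axis) of S100a8, S100a9 and Slpi in 3 ranges of UMIs per cell, with exact Poisson 95% intervals, for WT_LW and TLR9agonist_LW. The libraries met at about 5000 CPM of S100a8 in the shallowest cells and stood at 1016 and 8851 in the deepest.

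Calprotectin was spread unevenly over cells. The tenth of keratinocytes with most S100a8 UMIs held 85.9% of them in WT_LW (52 cells) and 55.4% in TLR9agonist_LW (123 cells). With each cell thinned to 1500 UMIs, 26.8% of 440 keratinocytes of WT_LW and 80.8% of 1144 keratinocytes of TLR9agonist_LW had an S100a8 UMI, compared with 46.9% and 99.4% before thinning. These shares need a baseline, because 4.73% and 68.1% of the thinned endothelial, Schwann, pericyte and T cells had one too. Set against the 99th percentile of those cells (1 UMI in WT_LW and 5 UMIs in TLR9agonist_LW), 19.1% (95% interval 15.5 to 23.1) and 44.5% (41.6 to 47.4) of keratinocytes lay above, as did 81.8% and 87.7% of neutrophils. For S100a9 the shares of keratinocytes were 19.3% and 45.9%. The transcripts went together, since in keratinocytes thinned to 5000 UMIs 72.5% of the cells of WT_LW with S100a8 also had S100a9, against 14.5% of those without (Spearman correlation 0.72 over 316 cells, all of 1 library). In TLR9agonist_LW the shares were 95.5% and 75.4% (0.92 over 1058 cells), on the higher background.

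Levels differed by keratinocyte layer. Cells were assigned to the layer whose markers scored highest, a cut along a range, and 38 and 87 of them lay near it. S100a8 had 218 CPM in the basal cells of WT_LW and 1899 in those of TLR9agonist_LW, 2416 and 11218 in suprabasal cells, 619 and 6052 in upper follicle cells, and 271 and 5983 in bulge cells. The log2 ratios were 3.13, 2.22, 3.29 and 4.47, so calprotectin was higher in TLR9agonist_LW in each of these layers while suprabasal cells had the highest level of these layers in both libraries. The bulge group was small, with 48 and 72 cells, and its median depth differed, with 4541.5 and 12661.5 UMIs. It had 1537 and 1596 CPM of the suprabasal marker Krt1 beside 1873 and 1795 of the basal marker Krt5. Its name thus rests on the score alone. Cells with a high score for the wound keratins Krt6a, Krt6b, Krt16 and Krt17 and the connexins Gjb2 and Gjb6 had 3215 and 11446 CPM of S100a8, and the others 200 (199.8) and 1934. Suprabasal cells were 26.3% of the keratinocytes of WT_LW and 51.8% of those of TLR9agonist_LW, and high-scoring wound cells 32.9% and 57.2%. Cells with the highest granular score are not compared between libraries, because in TLR9agonist_LW they had 36.1 CPM of Lor, the main granular marker, against 9072 in WT_LW. Their S100a8 level was 4380 CPM in WT_LW and 14127 in TLR9agonist_LW, above that of the suprabasal cells of the same library.

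The defensins separated by layer. Defb6, a beta-defensin of skin and muscle, stood at 3182 and 3648 CPM in the upper follicle, and between 18.2 and 241 in basal, suprabasal and bulge cells. Its log2 ratio was 0.20 (95% interval 0.14 to 0.25) in the upper follicle and 0.92 (0.75 to 1.09) in suprabasal cells, although it was -0.76 over all keratinocytes. Upper follicle cells were 111 of 514 keratinocytes in WT_LW and 97 of 1221 in TLR9agonist_LW. Defb14, the mouse ortholog of human beta-defensin 3, had 245 of its 264 keratinocyte UMIs of TLR9agonist_LW in suprabasal cells, at 16.6 CPM against 1.62 in WT_LW. It was found in few cells, with a UMI in 98 of the 1221 keratinocytes of TLR9agonist_LW and in 5 of the 514 of WT_LW, and the highest cell had 30. Lcn2 was highest in the follicle, with 113 and 74.9 CPM in the upper follicle (log2 ratio -0.60, -0.93 to -0.26) and 100.03 and 129 in the bulge. In basal cells it had 11.8 and 29.4, and in suprabasal cells 10.2 and 46.5 (log2 ratio 2.19, 1.62 to 2.83), so the small difference over all keratinocytes joined opposite ones. Slpi had 83.6 and 235 in suprabasal cells, 45.1 and 127 in basal cells, and 6.59 and 122 in the upper follicle.

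**Figure D4:**
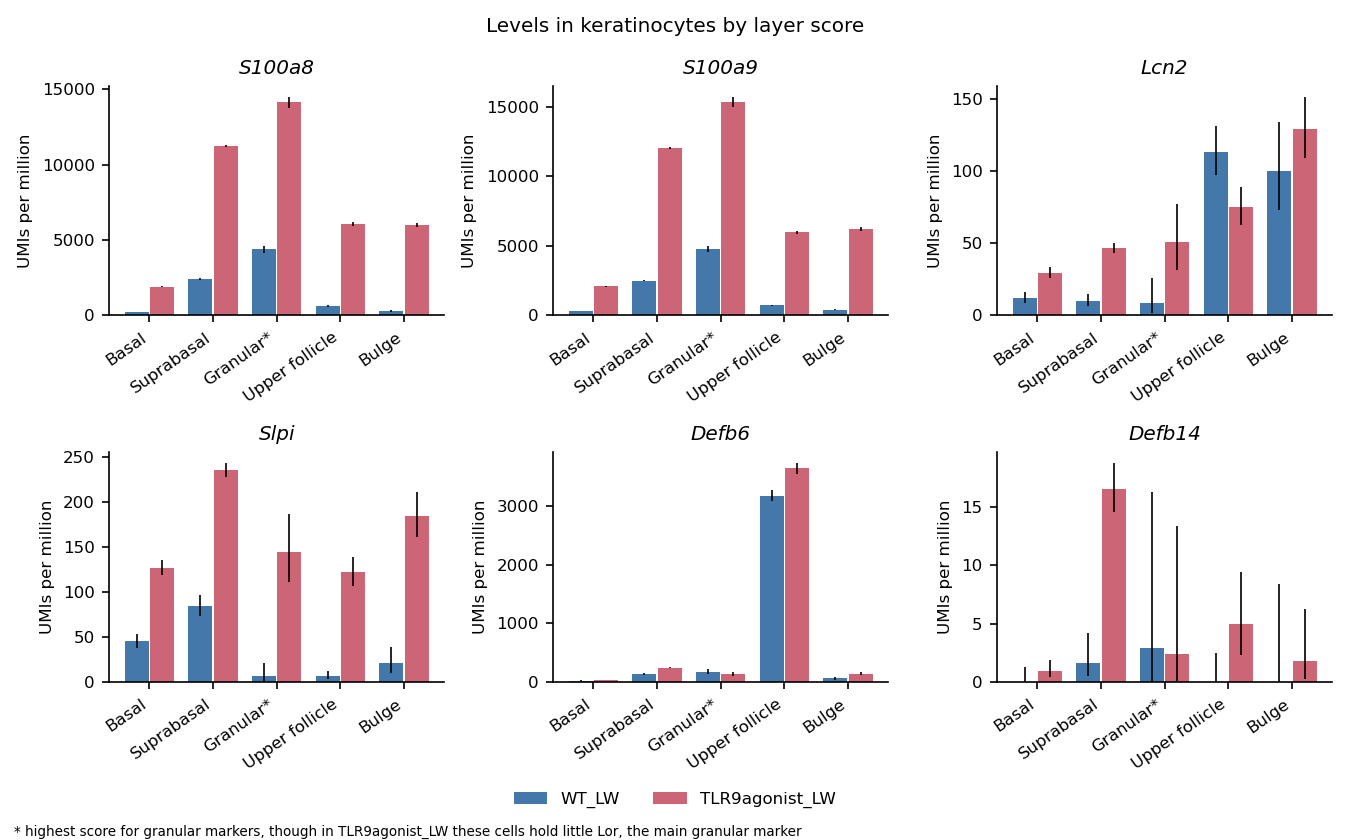
Level in CPM (vertical axis) of 6 genes in keratinocytes by the layer whose markers scored highest, with exact Poisson 95% intervals, in WT_LW and TLR9agonist_LW. Defb6 reached 3182 and 3648 in the upper follicle, and Defb14 reached 16.6 in the suprabasal cells of TLR9agonist_LW. In the granular group of TLR9agonist_LW the marker Lor was nearly absent.

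The free RNA was read from 4 classes that are not known as sources of calprotectin, the endothelial, Schwann, pericyte and T cells, with 4361 cells in WT_LW and 4385 in TLR9agonist_LW. S100a8 had 25.4 CPM there in WT_LW and 718 in TLR9agonist_LW, and S100a9 had 27.3 and 723. In TLR9agonist_LW the level ran from 423 in endothelial to 819 in T cells, with 350 in fibroblasts, 541 in macrophages and 1043 in mast cells. These levels are per UMI, and the classes differed in depth. Median UMIs per cell were 12182 in fibroblasts, 8384 in endothelial cells, 7652 in macrophages, 4591.5 in T cells and 1647 in mast cells. As counts, 3308 T cells held 13891 S100a8 UMIs, 370 endothelial cells 1514, 1199 macrophages 5246 and 2503 fibroblasts 11002. As a share of the keratinocyte level, S100a8 in the 4 classes came to 2.14% and 9.16%, and S100a9 to 2.12% and 8.64%. The 18 keratinocyte markers, read the same way, had a median of 1.28% in WT_LW (0.907% for Col17a1 to 7.63% for Cdh1) and 4.58% in TLR9agonist_LW (2.82% for Krt15 to 7.34% for Krt10). The marker genes were thus also more widespread in TLR9agonist_LW, and both subunits of calprotectin lay above the highest marker there. However, these 18 markers, like the 12 for neutrophils below, also set the classes, which calprotectin did not. Their shares are therefore not independent of the classing, and markers and calprotectin are not compared on equal terms. Lcn2 stood at 2.72% and 14.2%, Slpi at 10.4% and 11.7%, Defb6 at 1.54% and 5.57%, and Defb14 at 3.82% in TLR9agonist_LW. In the same classes the 12 neutrophil markers were at a median of 0.239% (11 with a value) and 0.161% of their neutrophil level. With the level of the 4 classes subtracted as free RNA, the log2 ratio of S100a8 in keratinocytes was 2.62 in place of 2.73. That subtraction was made in CPM, without regard to the greater depth of keratinocytes.

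The ratio of the subunits differed between neutrophils and keratinocytes. Neutrophils held 1.41 S100a9 UMIs per S100a8 UMI in WT_LW (95% interval 1.31 to 1.503) and 1.38 in TLR9agonist_LW (1.34 to 1.41), whereas keratinocytes held 1.09 (1.06 to 1.12) and 1.07 (1.06 to 1.07). In the 4 classes that read the free RNA the ratio was 1.08 (0.967 to 1.20) and 1.007 (0.986 to 1.03), and in macrophages 0.818 (0.697 to 0.958) and 0.994 (0.957 to 1.03). These lay at or below the keratinocyte ratio and below the neutrophil one. Against Krtdap, a protein of differentiating keratinocytes, S100a8 had 0.359 and 2.00 UMIs per UMI in keratinocytes and 0.702 and 4.15 in the 4 classes. Krtdap is also a marker by which cells were classed as keratinocytes, so these ratios are not independent of the classing. Of the thinned macrophages, 0.226% and 0.564% passed the 99th percentile of the 4 classes for S100a8.

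**Figure D5:**
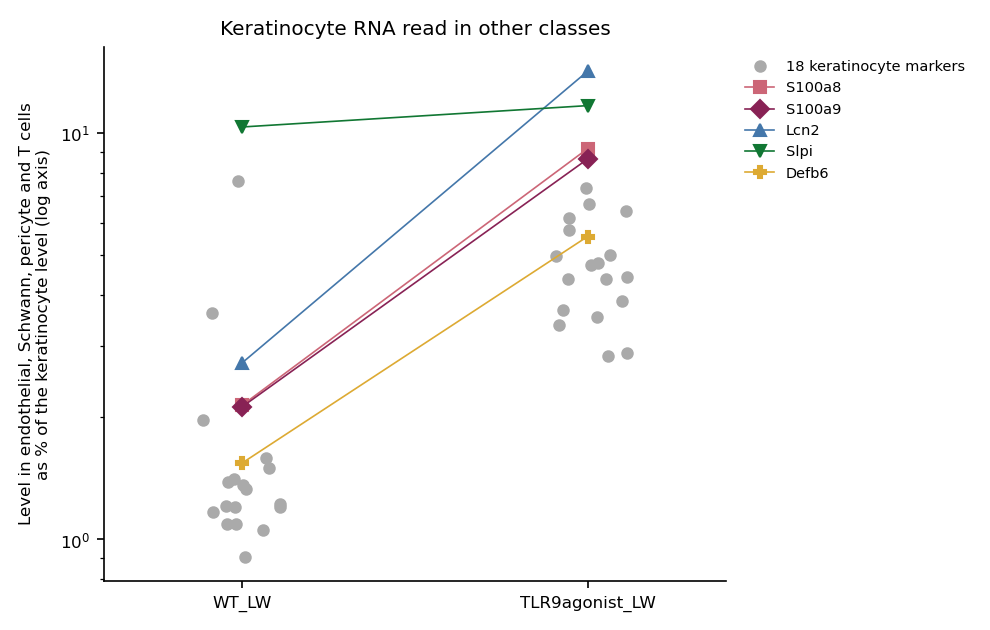
Level in endothelial, Schwann, pericyte and T cells, summed, as a percentage of the keratinocyte level of the same library (log axis), for 18 keratinocyte markers (grey points) and for S100a8, S100a9, Lcn2, Slpi and Defb6 (coloured symbols). The markers had medians of 1.28% and 4.58%, and S100a8 stood at 2.14% in WT_LW and 9.16% in TLR9agonist_LW, above the highest marker there. The markers also set the classes, so their percentages are not independent of the classing.

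Slpi was also high in macrophages. Macrophages and monocytes had 133 CPM in WT_LW and 409 in TLR9agonist_LW, against 4.83 and 22.3 in the 4 classes that read the free RNA. The number of Slpi UMIs per S100a8 UMI was 5.03 and 0.756 in macrophages, but 0.191 and 0.0310 in the 4 classes. The UMIs came from a minority, as 219 of 1418 and 294 of 1199 macrophages had one, and the highest cell of TLR9agonist_LW had 290 of 3965. After thinning, 7.44% and 7.06% of macrophages lay above the 99th percentile of the 4 classes (0 UMIs in WT_LW and 1 UMI in TLR9agonist_LW), as did 4.09% and 6.82% of keratinocytes and 72.7% and 70.6% of neutrophils. Dendritic cells had 4.18 and 9.95 CPM, near the background.

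Lcn2 appeared in vessels. Lymphatic endothelial cells had 45.4 CPM in WT_LW (95% interval 27.3 to 70.9) and 48.3 in TLR9agonist_LW (29.1 to 75.4), on 19 UMIs each, compared with 0.668 and 2.54 in T cells. Few cells carried them, since in WT_LW 2 of the 55 cells held 7 UMIs each and in TLR9agonist_LW 2 of the 45 cells held 6 and 3. Most lymphatic cells had a high doublet score and were kept by a rule set after seeing that. Blood endothelial cells had 2.83 (1.51 to 4.84) and 14.8 (11.1 to 19.4), with a UMI in 10 of 596 and in 33 of 370 cells. Pericytes had 0.414 and 25.0, but 39 of the 73 UMIs of TLR9agonist_LW were in 1 cell and 12 in another. Lcn2 UMIs per S100a8 UMI were 0.149 and 0.0350 in endothelial cells and 1.27 and 0.0892 in lymphatic endothelial cells, against 0.0239 and 0.00310 in T cells. Of the 172 Lcn2 UMIs of the 4 classes in TLR9agonist_LW, pericytes held 73 and endothelial cells 53, so the level in those classes is not a measure of free RNA alone for this gene.

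S100a7a and Camp were near the limit of detection. S100a7a had 77 and 205 UMIs in all, of which 24 and 63 were in fibroblasts, and where it was detected its levels ran from 0.182 in T cells to 4.60 in Schwann cells in WT_LW, and reached 7.53 in the pericytes of TLR9agonist_LW. The keratinocyte levels of 0.776 and 2.30 lay among those, with 0.825 and 1.47 in the 4 classes. Camp, which neutrophils transcribe during their maturation in bone marrow, had 14 UMIs, 12 of them in fibroblasts (1 in WT_LW, and 11 in 8 cells of TLR9agonist_LW) and none in neutrophils. The fibroblast level was 0.0683 (0.00173 to 0.381) and 0.350 (0.175 to 0.626) CPM.

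Related genes were counted in lists of known function, which were chosen with earlier results of these data known. Their counts and medians, here and in neutrophils, are therefore a description without a test. In keratinocytes they are read against the 2.48% of all genes counted that were at least 2-fold higher and the 21.2% that were lower. Of the IL-17-induced epithelial genes, 20 had enough UMIs in keratinocytes, and 5 of them were at least 2-fold higher in TLR9agonist_LW: Csf3 (log2 ratio 3.23), which drives the making of neutrophils, Sprr2d (2.95), a cornified envelope protein, Ccl20 (2.30) and Cxcl5 (1.60), which attract leukocytes, and Saa3 (1.43), an acute phase protein. None was 2-fold lower, and the list's median of 0.62 compares with -0.53 over all genes. Of 9 other S100 genes, 0 were at least 2-fold higher and 2 lower (S100a4 at -1.49 and S100a1 at -1.06), near the shares of all genes, with a median of -0.41. Of 13 other epithelial antimicrobial genes, 3 were at least 2-fold higher (Sprr2d, Sprr2h at 2.82 and the defensin Defb3 at 1.28) and 4 lower (Wfdc21 at -6.52, Wfdc12 at -2.55, Cst6 at -1.33 and Wfdc5 at -1.10). Their median was -0.24. Of 7 receptors and partners, Plscr1 (1.73) was higher, and Cd36 (-3.30), Slc22a17 (-1.70), a receptor for lipocalin 2, and Emb (-1.26) were lower, with a median of -0.21. Of 3 counted granule protein genes, Lyz2 (-1.51) and Cybb (-1.18) were lower in keratinocytes, with a median of -1.18.

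In neutrophils other genes of the lists were past 2-fold, where 12.2% of all genes counted were at least 2-fold higher and 12.9% lower. Of 4 counted granule protein genes, 3 were at least 2-fold lower in TLR9agonist_LW, the gelatinase Mmp9 (-2.77), the oxidase subunit Cybb (-2.34) and the peptidoglycan-binding Pglyrp1 (-1.12), with a list median of -1.73 against -0.08 over all genes. Mmp9 is also 1 of the 12 markers by which cells were classed as neutrophils. Its ratio, and with it the count and median of this list, is therefore not independent of the classing. The list has 14 genes, and the others had under 50 UMIs in neutrophils. Of 15 IL-17-induced genes, 7 were at least 2-fold higher and 1 lower (Saa3, -1.30), and the largest ratios belonged to Stfa1 (4.35), BC100530 (3.48), Krt16 (2.62) and Krt6a (2.29). Krt16 and Krt6a are keratinocyte genes, whose RNA was also more widespread in TLR9agonist_LW, and its part in these values was not tested. Of the 4 other S100 genes, S100a4 (-2.04) was lower and the median was -0.27. Of 4 antimicrobial genes, Wfdc17 (1.56) was higher, Sprr2d had 0 and 153 UMIs, Pglyrp1 was lower, and the median was 1.07. Sprr2d, a cornified envelope gene, is in this list and in the IL-17 list, and the part of free RNA in its UMIs was not tested either. None of 5 receptors and partners was past 2-fold, with a median of -0.31.

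The genes with the most similar pattern were found from log2(CPM + 10) over 18 profiles (9 classes with at least 50 cells in each library, neutrophils not among them) among 13419 genes. For S100a8 they were S100a9 (Pearson correlation 0.998), Sprr2d (0.995) and Sprr2i (0.978), and for S100a9 they were S100a8, Sprr2d (0.996) and Sprr2i (0.980). Defb14 was nearest to Lce3d (0.968), Lce3f (0.960) and Sprr2k (0.955), genes of the cornified envelope, and Defb6 to Klk11 (0.994), Calml3 (0.991) and Tdh (0.990). Lcn2 was nearest to Eif6 (0.939), Car13 (0.909) and Grip1 (0.891), and Slpi to Cstb (0.885), Hcar2 (0.872) and Blnk (0.846). Camp was nearest to Ccdc42 (0.990), Cyp2f2 (0.983) and Hs3st5 (0.977), on 14 UMIs. The profiles of a library share its depth and free RNA, and they are not independent.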

How the data were processed

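Single-cell RNA was counted in 2 libraries, 1 per group. The matrices that the authors deposited hold the unnormalized count of UMIs for each gene and barcode, made with Cell Ranger 4.0.0 per the file headers. The submitters' notes also list fastp, Seurat and the mm9 genome build, without their order. Cells were kept with at least 500 UMIs, 300 genes and at most 15% mitochondrial UMIs, which left 11443 and 13206 of 12800 and 13751 barcodes. Cells with a high simulated-doublet score (0.8% per 1000 cells) that also held a second lineage's markers were removed (855 and 1138), a rule set after seeing that the score alone removed most lymphatic cells. A marker was positive when its UMIs exceeded the 99th Poisson percentile at 2 times its library-median share. A cell took the class with the highest share of positive markers, given at least 3, and a runner-up share of at most 0.5 of it. UMIs of each class were added up in each library and scaled to CPM, with 95% limits from the exact Poisson distribution, ratios with exact intervals given their total, and shares with Clopper-Pearson intervals. A gene with at least 50 UMIs in both libraries' sum was counted, and called at 2-fold. With 1 library per group there was no test, and PCR duplicates, mice and preparation are not in the intervals. A count of 0 allows up to 3 counts. Thinning drew 1500 or 5000 UMIs per cell.

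The members and gene lists were chosen with earlier results of these data known. Named were all members, genes of the lists past 2-fold (up to 4 per direction, and all where a count was 5 or fewer), and the 3 most similar genes per member (those of S100a7a are not reported here). Promoter sequences are from RefSeq (GRCm38.p6), and 7 of 8 members matched. Intervals and counts came from pandas 2.3.3, scipy 1.17.1 and numpy 2.4.6 under Python 3.11.15. Doublet scores and cell neighbours came from scikit-learn 1.9.0, clusters from scanpy 1.11.5 with leidenalg 0.10.2, and figures from matplotlib 3.10.9. The ratio code was tested on simulated data. Alternatives changed the cell filter, doublets, classes, weighting, free RNA and the 50-UMI minimum.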

Additional observations from a re-analysis of the deposited data

Results flagged for a closer look

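Defb6 had opposite directions in 2 cell classes, each summed over all its cells. Its log2 ratio, TLR9agonist_LW over WT_LW, was -0.76 in keratinocytes and 1.20 in T cells. The difference between the classes was not tested, because each group is 1 library. The T cells are among the classes in which keratinocyte RNA was more widespread in TLR9agonist_LW, with the 18 keratinocyte markers at a median of 1.28% and 4.58% of their keratinocyte level, and the part of this in the Defb6 ratio was not tested.

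Lcn2 had opposite directions in 2 keratinocyte layers, with a log2 ratio of -0.60 in cells scored as upper follicle and 2.19 in cells scored as suprabasal. This difference was not tested either. It rests on 172 and 135 UMIs in the upper follicle and on 25 and 686 in suprabasal cells.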

How the results depend on the processing

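No paired analysis was possible because each group has 1 library, and for the same reason no replicate could be left out. Of the 8 members, 4 had enough UMIs to be counted in neutrophils with the main settings. None of these was past 2-fold, where 12.2% of all genes counted were at least 2-fold higher and 12.9% lower. With classes taken from Leiden clusters 1 member was (Lcn2, log2 ratio 1.03), and with a stricter gate 1 was (Slpi, 1.88). The log2 ratio of S100a8 in keratinocytes, 2.73, was 2.85 with a stricter cell filter, 2.49 with doublets kept, 2.66 with Leiden clusters, 2.69 with a stricter gate, 1.44 with equal weight per cell, 2.62 with free RNA subtracted and 2.62 with all high doublet scores removed, the last chosen after seeing the data, as were the ranges of cell depth. The share of S100a8 UMIs of TLR9agonist_LW in keratinocytes, 72.3%, was 74.7%, 61.0%, 79.3%, 48.5%, 30.9%, 84.1% and 71.7% under the same alternatives in that order. The causes of these shifts were not tested. Where a ratio could be computed (7 members in keratinocytes and in all cells, S100a8, S100a9, Lcn2 and Slpi in neutrophils), its sign was kept under the alternatives run, except for Lcn2 in keratinocytes (-0.03 with doublets kept). S100a7a in keratinocytes gave no value with free RNA subtracted or at least 200 UMIs, and Camp gave none at all. Defb6 in keratinocytes ranged from -1.16, past 2-fold, to -0.16. S100a7a in keratinocytes was under 2-fold with the stricter gate (0.89). The number of members past 2-fold in keratinocytes was 4 in place of 5 with the stricter gate, free RNA subtracted or at least 200 UMIs. In all cells it was 5 in place of 6 with equal weight per cell (S100a7a at 0.49 in place of 1.007) and 7 with all high doublet scores removed (Defb6 at 1.20 in place of 0.57). With the main settings, 2.48% of all genes counted in keratinocytes and 4.16% of those in all cells were at least 2-fold higher. At 200 UMIs the share in keratinocytes was 2.36%. Under the other alternatives such shares were not computed. Depth limits S100a7a, Defb14 in WT_LW and Camp, whose ratios rest on few UMIs, and the 34 neutrophils of WT_LW limit every ratio in that class.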
